A study of Homo sapiens with 13 samples.

Results

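The step from day 4 to day 5 of blood differentiation was described in human embryonic stem cells by setting the array of day 5 against the array of day 4, 2 of the 13 arrays of the series. A gene counted as different when its normalized level differed at least 2-fold and its probe was detected on the brighter of the arrays. Of 14777 genes detected on at least 1 of these arrays, 687 were higher on day 5 (4.65% of the genes compared) and 322 were lower (2.18%).

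The cells were a RUNX1C GFP/w reporter line, and HES3, its parent, is an established line of human embryonic stem cells. Every array of the series carries this reporter. The parent line had been kept on mouse feeder cells in a medium with serum replacement and FGF2. Differentiation took place in spin embryoid bodies, which are cell aggregates made in a centrifuge, and in APEL medium, which lacks serum. Up to day 4 the medium held BMP4, VEGF, SCF and activin. At day 4 it was replaced with fresh medium that held BMP4, VEGF, SCF, FGF2 and IGF2, so activin was withdrawn and FGF2 and IGF2 were added while the other factors stayed. Unsorted cells were measured on each day from 0 to 8, with 1 array a day. A further 4 arrays held day 7 cells sorted on CD34 and CD41. Those fractions were CD34hi CD41-, CD34lo CD41-, CD34lo CD41lo and cells negative for both, CD34- CD41-. The labels do not say whether the day 4 cells were collected before or after the medium was replaced, and the column names of days 1 to 8 carry the same suffix, so they do not mark the change.

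Endothelial cells line blood vessels, and in the embryo they arise from mesoderm that carries the VEGF receptor KDR. Transcription factors of the ETS, SOXF, GATA and TAL families switch on endothelial genes in these precursors, and part of the endothelium then gives rise to blood cells. Activin and its relative Nodal act through SMAD2 and SMAD3 and are known for their part in forming primitive streak and endoderm, whereas FGF2 acts through receptor tyrosine kinases and the MAP kinase pathway, and IGF2 through the IGF1 receptor.

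Because each day had 1 array, no spread between replicates stands behind the difference between day 4 and day 5, and it was not tested. The number of detected probes ran from 15134 to 17833 per array, with 17613 on day 4 and 17329 on day 5. The 9 arrays of the time course lay on a single chip in order of day, so day and chip position cannot be told apart, and the sorted fractions lay on another chip. Over all 17657 genes of the time course the median difference of day 5 minus day 4 was -0.02 on the log2 scale. In whole embryoid bodies a lower level can mean fewer cells of a type or less RNA per cell, and these cannot be told apart. Levels below are normalized log2 levels of the brightest probe of a gene, and where 1 side was not detected the fold change is a lower bound, written as at least N-fold.

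The label of the step, endothelial commitment, was checked against CD34 and CDH5. CD34 encodes a surface protein of endothelium and early blood cells, and it is also the protein on which the day 7 fractions were sorted. Its level lay between 4.67 and 4.98 on days 0 to 3 and was 6.54 on day 4, 9.96 on day 5, 11.23 on day 6, 11.38 on day 7 and 10.96 on day 8. CDH5, the endothelial cadherin of cell junctions, lay between 4.30 and 4.38 on days 0 to 3 and was 6.17 on day 4, 9.20 on day 5, 10.21 on day 6, 9.60 on day 7 and 9.18 on day 8. Both genes were thus already above their earlier levels on day 4, and the step to day 5 added 10.7-fold for CD34 and 8.17-fold for CDH5. A second CD34 probe was 3.49 higher on day 5 on the log2 scale, against 3.42 for the brightest probe.

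**Figure D1:**
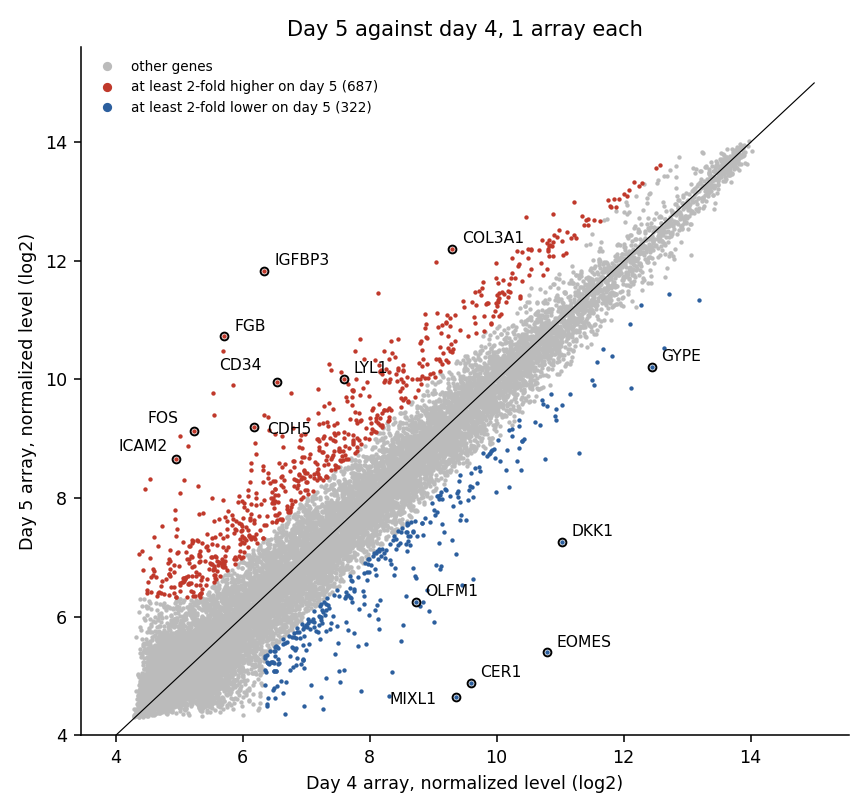
Normalized log2 level of each of 17657 genes on the day 4 array (x axis) and on the day 5 array (y axis), with the 687 genes at least 2-fold higher on day 5 in red, the 322 lower in blue and the line of equal levels in black. IGFBP3, FGB, CD34 and CDH5 stand above the line and EOMES, CER1, MIXL1 and DKK1 below it.

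Part of the 687 genes were higher on day 5 than on day 3 as well, and the others were not. Of the 687, 376 were also at least 2-fold above their day 3 level, and 311 were not. In the first set the median level was 6.09 on day 3, 6.75 on day 4, 8.62 on day 5 and 8.95 on day 6. In the other set it was 8.24 on day 3, 7.43 on day 4, 8.80 on day 5 and 8.54 on day 6. A day 4 median below those of days 3 and 5 follows largely from how that set was chosen, so it is no finding about the day 4 array. The medians of that set on days 0, 1 and 2, which the choice did not use, were 8.09, 8.22 and 8.13. Every count of genes higher on day 5 depends on the single day 4 array, and the named groups below are given with their day 3 levels where these matter. The 322 lower genes had medians of 8.15, 8.09, 6.46 and 6.32 on days 3 to 6, and 205 of them were also at least 2-fold below their day 3 level.

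The size rule cut through a continuous range. The genes closest inside it were LRBA, PRKD1 and DUSP1 on the higher side, with log2 differences of up to 1.0004, and KCTD14, GCNT1 and LIMA1 on the lower side, down to -1.0023. The closest outside were BMP6, at a difference of 0.998 on the log2 scale, and CDC7, at -0.997. Among the higher genes, 91 reached 4-fold and 16 of these 8-fold, and 100 were not detected on day 4. Among the lower genes, 40 reached 4-fold and 6 of these 8-fold, and 55 were not detected on day 5. Other probes of the same genes gave a partial repeat of the measurement on the same arrays. For the higher genes 188 of 226 other probes pointed the same way and 83 reached 2-fold, with a median difference of 0.72 on the log2 scale. For the lower genes 91 of 94 pointed the same way and 43 reached 2-fold, with a median of 0.95 in that direction.

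Genes of a list of endothelial genes, mostly of the cell surface and with some intracellular and secreted members, were often higher on day 5. Of 40 genes on that list 34 were measured, 16 were at least 2-fold higher and none was lower, and the median difference was 1.07 against -0.02 over all genes. The summed level of the measured members on a linear scale differed less, at 25391 on day 4 and 26884 on day 5. ICAM2, an adhesion molecule of endothelium that binds leukocytes, was not detected on day 4 (4.96), reached 8.66 on day 5 and 10.05 on day 6, and was at least 10.2-fold higher on day 5. PECAM1, a junction protein of endothelium and platelets, was not detected on day 4 (4.94), reached 7.65 on day 5 and 8.91 on day 6, and was at least 5.05-fold higher. TM4SF1, a tetraspanin-like protein of endothelial membranes, went from 4.80 on day 3 and 6.33 on day 4 to 9.40 on day 5, 8.35-fold above day 4. ESAM, CD93, CALCRL and ADGRL4, which encode an adhesion molecule, a lectin-like receptor, a receptor for adrenomedullin and an adhesion-type receptor, were likewise undetected on day 4 and detected on day 5. ESAM was at least 5.36-fold higher, CD93 at least 4.11-fold, CALCRL at least 3.93-fold and ADGRL4 at least 2.15-fold. CD93 went on from 7.35 on day 5 to 9.27 on day 6.

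The remaining endothelial genes that passed were ECSCR, a regulator of endothelial cell movement (6.21 on day 4 and 8.74 on day 5), GNG11, a G protein subunit (8.89 and 10.93), and SHANK3, a scaffold protein (6.39 and 8.34). RASIP1, a small-GTPase partner needed for vessel lumen formation (7.84 and 9.73), EGFL7, a secreted factor of endothelium (6.11 and 7.64), CD248, a glycoprotein that is better known from pericytes (7.57 and 8.71), and HHEX (6.79 and 8.63) passed as well. RASIP1 differs from most of the list in that it was already at 8.60 on day 0. HHEX, a homeobox factor of endothelium and endoderm, had been at 7.77 on day 2 and 7.53 on day 3, so part of its difference was a return from a lower day 4 level. FCN3, a lectin of the complement system that was not on the list, went from 5.53 on day 4 to 9.78 on day 5 (19-fold), the fourth largest difference on the higher side. Members that did not pass included VWF, the platelet-binding factor stored in endothelium, at 7.85 and 7.87, and CLDN5 and EMCN, which were detected on neither day. These members, and others named below without passing the size rule outside the activin, FGF and IGF pathway lists, were picked after their values were seen.

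**Figure D2:**
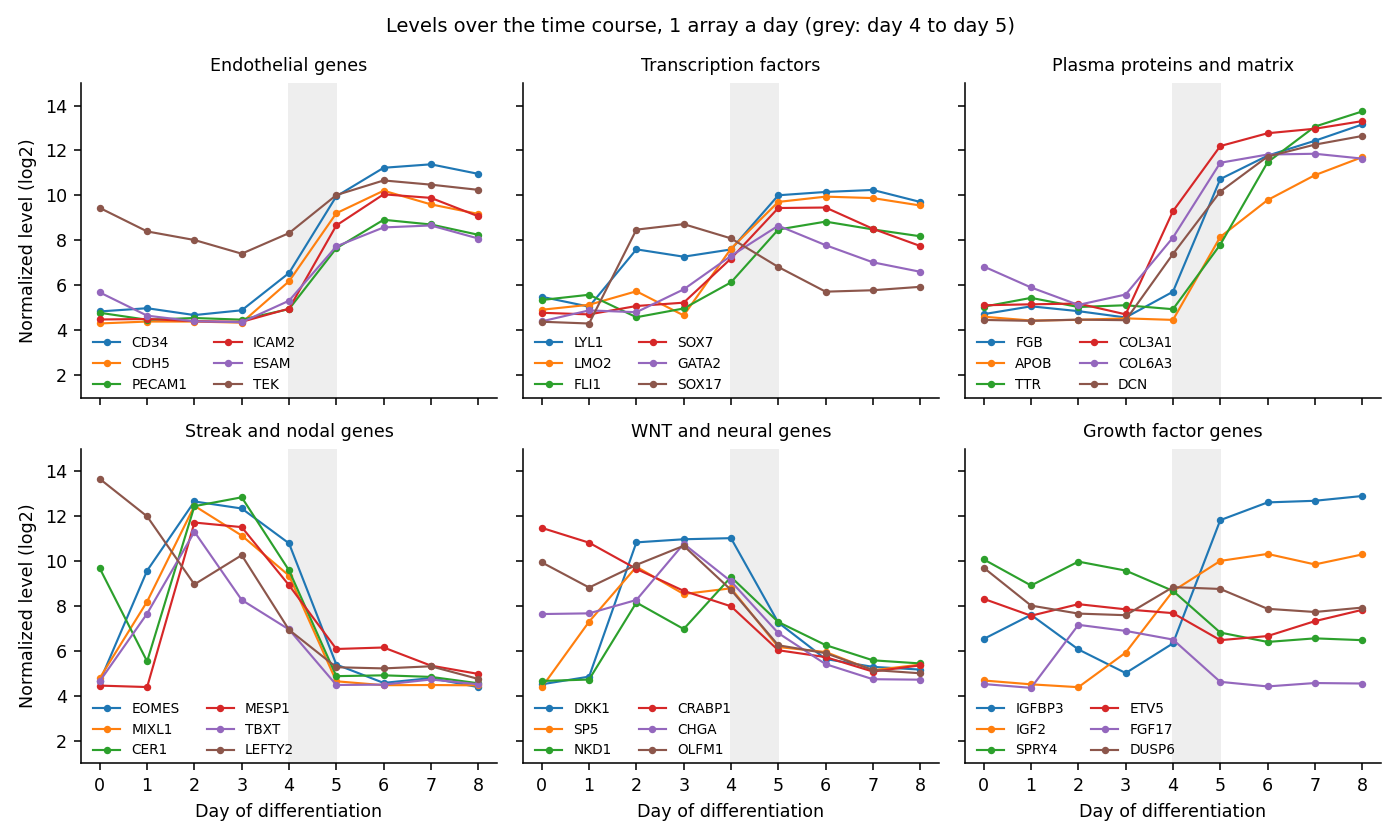
Normalized log2 level (y axis) of selected genes on each day from 0 to 8 (x axis), 1 array a day, with days 4 to 5 shaded. Most endothelial genes drawn lie near 4 to 6 up to day 3 and at 7.65 or more on day 5, whereas the streak and nodal genes lie between 4.49 and 6.09 on day 5.

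Promoters are shown for genes that illustrate the higher and the lower side of the step. Of the 16 endothelial genes that passed, 10 had an entry in the RefSeq promoter table (build GRCh38.p14), which holds 300 bases around a gene start, mostly before it. They were searched on both strands for AGGAAG, a form of the core sequence to which ETS factors are known to bind. A match is a description of these letters and says nothing of binding. The 300 bases of CD34 (chr1:207911076-207911375, minus strand), ECSCR (chr5:139462694-139462993, minus strand), RASIP1 (chr19:48740561-48740860, minus strand) and HHEX (chr10:92689705-92690004, plus strand) read as follows, with matches in capitals.
CD34: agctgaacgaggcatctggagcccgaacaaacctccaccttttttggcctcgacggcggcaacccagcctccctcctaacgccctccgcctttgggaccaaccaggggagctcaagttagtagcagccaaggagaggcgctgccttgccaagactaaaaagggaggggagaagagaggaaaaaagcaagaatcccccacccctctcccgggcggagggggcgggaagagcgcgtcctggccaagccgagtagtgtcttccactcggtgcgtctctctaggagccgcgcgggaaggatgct
ECSCR: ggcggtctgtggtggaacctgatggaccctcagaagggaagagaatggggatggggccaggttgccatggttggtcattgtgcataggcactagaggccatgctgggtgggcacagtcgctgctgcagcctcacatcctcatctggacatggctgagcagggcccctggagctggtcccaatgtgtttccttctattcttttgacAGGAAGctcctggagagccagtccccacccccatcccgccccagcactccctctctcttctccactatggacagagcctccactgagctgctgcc
RASIP1: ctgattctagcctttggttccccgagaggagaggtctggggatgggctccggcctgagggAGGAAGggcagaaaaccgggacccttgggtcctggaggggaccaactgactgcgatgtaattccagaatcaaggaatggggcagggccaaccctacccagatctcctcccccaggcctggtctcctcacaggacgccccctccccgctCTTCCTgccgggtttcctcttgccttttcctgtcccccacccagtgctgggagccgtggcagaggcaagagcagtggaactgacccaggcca
HHEX: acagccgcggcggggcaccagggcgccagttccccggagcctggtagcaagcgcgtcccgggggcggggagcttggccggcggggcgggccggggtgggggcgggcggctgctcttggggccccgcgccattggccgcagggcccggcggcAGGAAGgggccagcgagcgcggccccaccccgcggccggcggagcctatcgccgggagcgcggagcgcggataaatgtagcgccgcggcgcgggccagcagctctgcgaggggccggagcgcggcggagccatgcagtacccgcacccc

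The CD34 window held no match, those of ECSCR and HHEX held 1 each and that of RASIP1 held 2. AGGAAG occurred in 7 of the 10 endothelial promoters (70.0%), in 33.7% of all 27305 promoters of the table, in 32.7% of the 10509 available for the genes of the time course and in 33.8% of the 405 promoters available for the genes higher on day 5. Among 100 promoters of genes higher both on day 5 and in CD34hi CD41- cells it occurred in 41 (41%).

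Receptors and ligands of the vessel-forming pathways differed from member to member. Of 13 measured genes of the VEGF, TIE and apelin list 4 were higher and 1 was lower. TEK, the receptor for angiopoietins, stood at 7.40 on day 3, 8.32 on day 4, 10.01 on day 5 and 10.66 on day 6, and was 3.23-fold higher on day 5 than on day 4. TIE1, its partner receptor, was not detected on day 4 (4.50), stood at 6.59 on day 5 and reached 8.18 on day 6. ANGPT1, the activating ligand of TEK, went from 5.55 to 7.61 (4.16-fold), while ANGPT2, the ligand that mostly opposes it, went from 9.57 to 8.14 (2.70-fold lower). The angiopoietin genes thus differed in opposite directions across the step. VEGFA went from 7.37 to 9.01. KDR, the main VEGF receptor, had its largest difference a day earlier, from 5.22 on day 3 to 7.59 on day 4, and stood at 8.13 on day 5. APLNR, the apelin receptor of early mesoderm, was at 13.06 and 12.10 and passed in neither direction.

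Transcription factors that act in endothelium and in the earliest blood cells were higher on day 5 in 10 of 23 measured members and lower in 1, with a median difference of 1.34. LYL1 and LMO2, which work in one complex with TAL1, went from 7.59 to 10.00 (5.32-fold) and from 7.63 to 9.71 (4.23-fold). LMO2 had been at 4.65 on day 3, so most of its difference from that day was already present on day 4. FLI1, an ETS factor of endothelium and megakaryocytes, went from 6.13 to 8.48 (5.11-fold). SOX7 and SOX18, SOXF factors of early vessels, went from 7.19 to 9.44 and from 7.45 to 8.97, while SOX17, the remaining SOXF gene, went the other way, from 8.08 to 6.81 (2.42-fold lower). SOX17 also marks endoderm, and it had stood at 8.72 on day 3. EPAS1, a hypoxia-inducible factor of endothelium, went from 6.12 to 8.27, KLF2, a factor that responds to blood flow, from 8.16 to 10.12, and BCL6B from 6.96 to 8.46. GATA2, needed for blood stem cells, went from 7.31 to 8.65 and was lower again on the next days, with 7.78 on day 6 and 6.60 on day 8. ETV2, an early ETS factor at the head of this network, had levels of 5.74 and 6.47 on days 4 and 5, and TAL1 of 5.24, not detected, and 6.11.

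Genes of the blood lineage were less even. Of 12 measured blood transcription factors 4 were higher and none was lower. RUNX1, the factor whose distal isoform the reporter follows, was not detected on day 4 (5.01) and stood at 6.53 on day 5, at least 2.34-fold higher, then at 6.32, 5.94 and 5.66 on days 6 to 8. Which RUNX1 isoforms the probe reads is not stated in the files. MYB, needed for definitive blood cells, went from 7.44 to 9.22, but it had stood at 8.47 on day 3 and so was lower on day 4 than on either neighbouring day. GFI1, which represses endothelial genes in emerging blood cells, went from 5.98 to 7.46 and was back at 6.45 on day 6. NFE2, a megakaryocyte and red cell factor, went from 7.52 to 8.81. SPI1 and GATA1, master factors of myeloid and red cells, were detected on neither day.

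Leukocyte and myeloid genes had 4 of 13 measured members higher and none lower. ARHGDIB, a regulator of small GTPases in blood cells and endothelium, went from 5.69 to 10.48, a 27.6-fold difference and the third largest on the higher side. LAPTM5 (at least 2.93-fold), SPN (2.82-fold) and RAC2 (2.25-fold) also passed, whereas CSF1R, LYZ, TYROBP and FCER1G were detected on neither day. On the megakaryocyte list 1 of 7 measured genes was higher and none was lower, and without background correction or with an offset of 50 none was higher. ITGA2B, which encodes CD41, was detected on neither day. In the red cell list 1 of 16 measured genes was higher and 2 were lower, against 4 and 3 with the submitters' own values and 0 and 2 with an offset of 50. Over all genes 4.65% were higher, so the 1 higher gene is close to that share. RHAG, a membrane protein of red cells, went from 4.58, not detected, to 6.80. GYPB and GYPE went the other way, from 11.29 to 8.75 and from 12.44 to 10.21, and they share long stretches of sequence, so their probes may not be separate measurements. HBE1, the embryonic beta-type globin, was not detected on day 4 and at 6.19 on day 5, and stood at 10.73 on day 6, so its main increase came after this step.

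Notch genes and arterial genes were mixed, with 2 of 18 measured members higher and 3 lower, or 2 lower without background correction or with an offset of 50. HEY1, a Notch target of arteries, went from 8.06 to 9.52, and MFNG, which modifies Notch receptors, from 4.95, not detected, to 7.35. DLL3 and JAG1, which encode Notch ligands, went from 8.83 to 7.38 and from 7.43 to 6.01. CXCR4, a chemokine receptor of arteries and of endoderm, went from 6.97 to 5.82 and stood at 7.45 on day 6. None of the 5 venous genes passed in either direction.

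**Figure D3:**
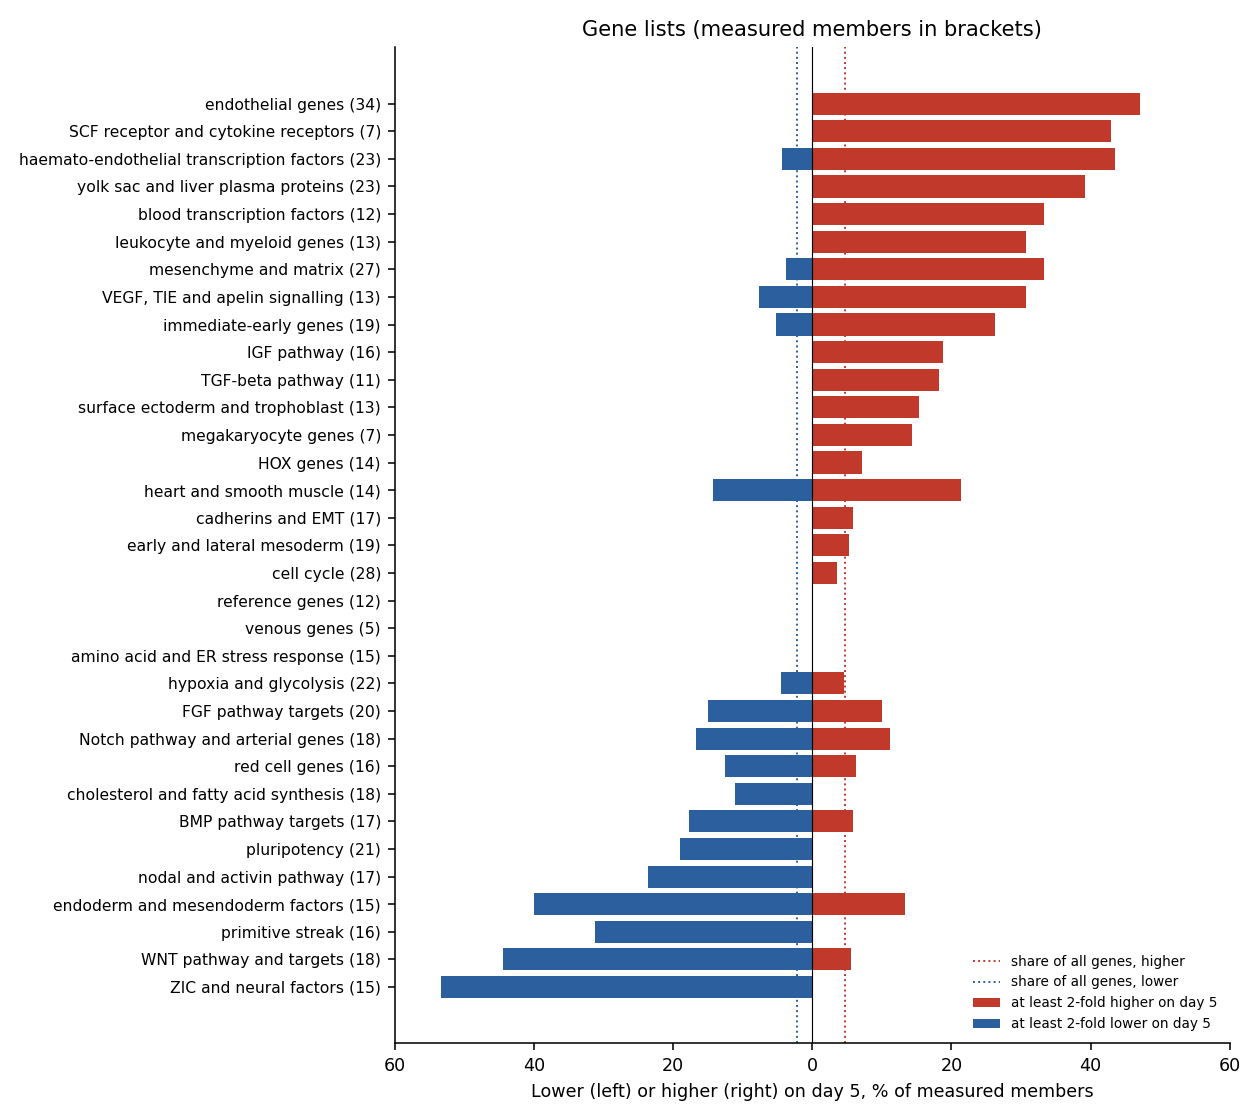
Share of the measured members of each gene list (number in brackets) that were at least 2-fold higher on day 5 (right, red) or at least 2-fold lower (left, blue), in percent, with dotted lines at the shares over all genes, 4.65% and 2.18%. Endothelial genes have 16 of 34 members on the right and ZIC and neural factors have 8 of 15 on the left.

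The step was not limited to endothelium. Genes for plasma proteins made by yolk sac and liver were higher in 9 of 23 measured members and lower in none, with a median difference of 0.44. FGB, the beta chain of fibrinogen, went from 4.56 on day 3 and 5.71 on day 4 to 10.73 on day 5, a 32.3-fold difference, and FGA, the alpha chain, from 6.12 to 8.58. The gamma chain gene FGG was not detected on day 4 and was at 6.29 on day 5, short of 2-fold above the detection floor. MTTP, which loads lipid onto apolipoprotein B, went from 5.13 to 8.88 (at least 11.9-fold) and APOB from 4.46 to 8.15 (at least 7.17-fold), both undetected on day 4. APOA1, the main protein of high-density lipoprotein, went from 10.45 to 12.74, APOA2 from 7.84 to 10.68, TTR, a carrier of thyroid hormone, from 4.93, not detected, to 7.81, and APOM from 5.69 to 7.34. ALB, the albumin gene, passed at 2.06-fold, at its lower bound. AFP, a widely used yolk sac marker, stood at 8.95 and 9.18, and AHSG, RBP4, TF and SERPINA1 were detected on neither day. On a linear scale the summed level of the list was 9914 on day 4 and 20813 on day 5.

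Genes of mesenchyme and extracellular matrix were higher in 9 of 27 measured members and lower in 1. COL3A1, a fibrillar collagen, went from 4.70 on day 3 to 9.30 on day 4 and 12.20 on day 5, so it gained more from day 3 to day 4 than over the step. COL6A3, a chain of collagen VI, went from 8.12 to 11.45 (10.1-fold), DCN, the proteoglycan decorin, from 7.39 to 10.17 (6.85-fold), and NID2, a basement membrane protein, from 7.02 to 9.34. COL1A1 and ACTA2, which encode collagen I and smooth muscle actin, went from 8.87 to 11.11 and from 7.73 to 9.80. LOX, an enzyme that crosslinks collagen and was not on the list, went from 5.55 to 9.40 (14.5-fold), and PLAT, the tissue plasminogen activator, from 5.85 to 9.91 (16.7-fold). PDGFRB, a receptor of pericytes and fibroblasts, was the lower member, from 9.97 to 8.68. The summed level of the list on the linear scale was 55809 on day 4 and 76740 on day 5. In heart and smooth muscle genes 3 of 14 measured members were higher, TNNT2 (3.38-fold), ACTC1 (2.41-fold) and TPM1 (2.32-fold), and 2 were lower, CNN1 (2.20-fold) and ACTG2 (at least 2.15-fold), neither of which passed without background correction or with an offset of 50.

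Among large differences outside the lists, AKR1B10, an aldo-keto reductase, went from 5.02 to 9.04 and AKR1B15 from 4.54 to 8.33, both undetected on day 4. They are near-identical neighbours, so the probes may read the same transcript. In the surface ectoderm and trophoblast list 2 of 13 measured members were higher, IGFBP3 and TFAP2A, a factor of both tissues (2.90-fold). HAND2, a mesoderm factor of heart and limb, was 3.14-fold higher, the single member of 19 on the early and lateral mesoderm list to pass, close to the 4.65% of all genes.

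On the activin side, genes of the nodal and activin pathway were lower in 4 of 17 measured members and higher in none, with 13 of 17 below 0 and a median difference of -0.29. CER1, a secreted inhibitor of Nodal, BMP and WNT, stood at 12.84 on day 3, 9.59 on day 4 and 4.88 on day 5, where it was not detected, at least 19-fold lower than on day 4. LEFTY2, an inhibitor that Nodal signals switch on, stood at 10.27, 6.94 and 5.28 on these days and was not detected on day 5. FST, which binds activin, went from 10.93 to 9.32 and back to 10.00 on day 6. CFC1, a co-receptor, went from 10.05 to 8.62, while a second, dimmer CFC1 probe was at 5.74 and 5.47. With the mean of detected probes 3 of the 17 pathway genes were lower. CER1 and LEFTY2 were thus already lower on day 4 than on day 3. NODAL was at 7.84, 5.62 and 4.61 on days 3 to 5, and LEFTY1 at 8.66 on day 3 and detected on neither day 4 nor day 5. The receptors and signal carriers differed little, with ACVR1B at 8.93 and 9.33, ACVR2A at 8.20 and 7.82, SMAD2 at 6.39 and 6.35 and SMAD3 at 8.24 and 8.08 on days 4 and 5.

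Primitive streak genes were lower in 5 of 16 measured members and higher in none, and 15 of 16 had a lower level on day 5. EOMES, a T-box factor of streak and endoderm, stood at 9.58 on day 1, 12.66 on day 2, 12.35 on day 3, 10.79 on day 4 and 5.40 on day 5, and its 42.1-fold lower level was the largest difference on the lower side. MIXL1, a homeobox factor of the streak, was at 9.36 on day 4 and not detected on day 5 (4.65), at least 16.1-fold lower. MESP1, the early cardiac and blood mesoderm factor, went from 8.93 to 6.09 (7.16-fold), SP5, a WNT target, from 8.79 to 6.18 (6.12-fold) and TBXT, the brachyury gene, from 6.96 to 4.49, not detected. TBXT had been highest on day 2, at 11.31, and most of its decrease lay before day 4. Among the endoderm and mesendoderm factors 6 of 15 were lower, including LHX1 (5.14-fold), and 2 were higher, HHEX and FOXA1. FOXA1, a factor of endoderm and other epithelia, went from 6.47 to 7.92. FOXA2, GATA4 and GATA6 differed little, with FOXA2 at 9.28 and 9.61.

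WNT genes were lower in 8 of 18 measured members and higher in 1, with a median difference of -0.54. Without background correction or with an offset of 50, 6 were lower. Inhibitors that WNT signals induce were among them. DKK1, a secreted inhibitor, had been level at 10.84, 10.98 and 11.02 on days 2, 3 and 4 and was down to 7.26 on day 5 and to 5.64 on day 6, so unlike EOMES or CER1 it was not yet lower on day 4. A dimmer DKK1 probe was 1.53 lower on day 5 on the log2 scale, against 3.76 for the brightest. NKD1, an intracellular inhibitor, went from 9.29 to 7.29, LGR5, a receptor for R-spondin, from 7.50 to 5.56, DKK4 from 7.27 to 4.44, not detected, and ZNRF3 from 6.84 to 5.63. The ligand WNT5A went from 9.69 to 8.25 and the decoy SFRP2 from 6.50 to 5.48. FRZB, another decoy for WNT ligands, was the higher member, from 8.44 to 10.20. AXIN2, a general WNT target, was at 9.80 and 9.14, and LEF1, a nuclear partner of beta-catenin, at 11.14 and 11.08.

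Of the 8 lower WNT genes 4 had a promoter in the table, and they were searched on both strands for CTTTGA, a form of the core to which TCF and LEF factors are known to bind. It occurred in 2 of the 4 (50%), in 11.8% of the 204 promoters available for the lower genes and in 13.1% of those for the higher genes. The share was 8.96% in the 10509 promoters available for the genes of the time course and 13.1% in all promoters of the table. The windows with matches were those of DKK1 (chr10:52314031-52314330, plus strand), with 2, and SP5 (chr2:170715087-170715386, plus strand), with 3. Matches are in capitals.
DKK1: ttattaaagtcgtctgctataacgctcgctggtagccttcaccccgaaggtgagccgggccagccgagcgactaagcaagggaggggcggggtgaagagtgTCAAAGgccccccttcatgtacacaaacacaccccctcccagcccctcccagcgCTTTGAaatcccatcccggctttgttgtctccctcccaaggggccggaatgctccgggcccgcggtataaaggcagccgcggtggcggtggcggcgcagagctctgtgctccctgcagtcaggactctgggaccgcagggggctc
SP5: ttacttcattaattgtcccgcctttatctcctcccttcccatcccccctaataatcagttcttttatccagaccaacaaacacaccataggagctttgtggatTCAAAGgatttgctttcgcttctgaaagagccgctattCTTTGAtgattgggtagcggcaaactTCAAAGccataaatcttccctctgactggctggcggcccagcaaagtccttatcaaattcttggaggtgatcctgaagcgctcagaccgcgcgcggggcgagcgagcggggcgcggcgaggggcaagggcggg

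FGF pathway genes, of interest because FGF2 was added, were lower in 3 of 20 measured members and higher in 2, with a median difference of -0.21. The balance depended on the processing, with 1 lower and 2 higher without background correction or with an offset of 50, and 5 lower and 3 higher with the submitters' own values. SPRY4, a feedback inhibitor that FGF signals induce, stood at 9.58 on day 3, 8.68 on day 4, 6.82 on day 5 and 6.40 on day 6. ETV5, an ETS factor downstream of FGF receptors, went from 7.69 to 6.48, and FGF17 from 6.51 to 4.63, not detected. DUSP6, a phosphatase widely read as a target of this pathway, was at 7.59 on day 3, 8.84 on day 4 and 8.76 on day 5. SPRY1 was at 9.50 and 10.39 and SPRY2 at 10.72 and 10.07 on days 4 and 5, so the Sprouty genes did not move in 1 direction. IL17RD, another inhibitor, went from 8.52 to 10.16, yet it had been at 9.38 on day 3, and 2 further probes of it differed by -0.15 and -0.31. EGR1, an immediate-early gene, went from 7.35 to 9.61. Among the receptors FGFR1 was at 5.91 and 5.97, FGFR2 at 6.15 and 7.01, FGFR3 at 11.56 and 11.53 and FGFR4 at 7.82 and 7.49. A second FGFR1 probe was at 4.77 on day 4, below the detection floor of 5.31, and at 6.22 on day 5. Second probes of FGFR3 and FGFR4 differed by -0.25 and -0.08 on the log2 scale. The ligand genes FGF8, at 6.01 and 4.34, and FGF2, at 6.0 and 5.01, were detected on day 4 and not on day 5.

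IGF pathway genes were higher in 3 of 16 measured members and lower in none. IGFBP3, a secreted protein that binds IGF1 and IGF2, stood at 6.54, 7.61, 6.07, 5.02 and 6.34 on days 0 to 4 and at 11.83, 12.62, 12.69 and 12.90 on days 5 to 8. Its 44.9-fold difference between day 4 and day 5 was the largest on the higher side, and a second probe gave a log2 difference of 5.58 against 5.49. IGFBP6, which prefers IGF2, went from 7.35 to 9.22. IGF2 itself went from 5.93 on day 3 to 8.67 on day 4 and 10.01 on day 5, so the cells' own IGF2 transcript was already higher on day 4. IGFBP4 and IGFBP5 were at 10.38 and 9.67 and at 9.36 and 8.46. The IGF1 receptor gene IGF1R was detected on neither day, IGF2R was at 9.90 and 10.40 and the adapter IRS1 at 9.21 and 8.58.

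BMP4, VEGF and SCF were in the medium before and after the change. BMP pathway genes were lower in 3 of 17 measured members and higher in 1, which was lost without background correction and with an offset of 50. BMP4 itself went from 12.71 to 11.44, BMP2 from 9.96 to 8.83 and BMPER, which binds BMPs outside the cell, from 10.92 to 9.38. The direct BMP targets ID1 (11.09 and 11.10), ID3 (12.17 and 12.14) and MSX1 (12.71 and 12.62) were nearly level on their brightest probes, while a dimmer ID1 probe was at 6.02 and 7.52. SMAD9 went from 4.85, not detected, to 6.68. On the list of SCF and cytokine receptors 3 of 7 measured members were higher and none was lower, but none was higher without background correction or with a normalization offset of 50. KIT, the SCF receptor, was at 7.75 and 7.45, while GHR, the growth hormone receptor, and IL6ST, a shared receptor of the interleukin 6 family, were higher, by at least 2.59-fold and 2.72-fold. In the TGF-beta list 2 of 11 measured genes were higher, TGFBI, a matrix protein that TGF-beta induces (8.22 and 10.47), and TGFBR3, a co-receptor (8.45 and 10.69).

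Neural and ZIC factors were lower in 8 of 15 measured members and higher in none, with a median of -1.13. That was the lowest median of the lists, except with the submitters' own values, where primitive streak genes were lower (-1.53 against -1.15). OLFM1, a secreted protein of neurons, went from 8.72 to 6.26 (5.52-fold), and CHGA, a granule protein of neuroendocrine cells, from 9.10 to 6.80 (4.93-fold). CRABP1, a retinoic acid binding protein, went from 7.99 to 6.03. FABP7, a fatty acid binding protein of radial glia, had been 8.66 on day 3 and was 11.82 on day 4 and 10.40 on day 5, so it was highest on day 4. Among pluripotency genes 4 of 21 were lower and none was higher, with 2 to 5 lower under other processing. POU5F1, the central factor of embryonic stem cells, stood at 11.71 on day 0, 9.14 on day 4 and 7.56 on day 5, a 2.98-fold difference in a course that had begun earlier. A second, dim POU5F1 probe did not share it, with 4.53 and 4.74. SOX2, VRTN and L1TD1 also passed, and LIN28A and SALL4 did not, with 12.38 and 12.73 and with 10.41 and 9.99.

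Several large differences on the lower side belonged to no list. SLPI, a protease inhibitor of epithelia, went from 9.01 to 5.91 (8.57-fold), GRP, a neuropeptide, from 8.53 to 5.86 (6.37-fold), KLKB1, plasma prekallikrein, from 8.35 to 5.08, not detected, and KCNA5, a potassium channel, from 8.30 to 4.67, not detected. GRP had been at 12.14 on day 3. MIR9-1HG, the host gene of a neural microRNA, went from 8.49 to 5.60 (7.43-fold), and CCDC81 from 7.86 to 4.75, not detected. SERHL and SERHL2, near-identical copies whose probes may not be separate measurements, were 7.92-fold and 6.0-fold lower.

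Genes of the cell cycle list were mostly slightly lower on day 5. Of 28 measured members 25 had a lower level on the brightest probe, although none of these by 2-fold, and the median difference was -0.54. With the submitters' own values 1 member was at least 2-fold lower. Dimmer probes of MCM4 and PCNA differed by -1.02 and -1.13 on the log2 scale, and those of MCM7 by -0.14 and -0.56. POLE, outside the list and picked after its value was seen, was 2.79-fold lower. AURKB was at 10.51 and 9.62, BUB1 at 9.90 and 8.96, and MCM4 at 10.84 and 9.91. CDKN1C, an inhibitor of cyclin-dependent kinases, was the single member to pass, and it was higher, from 8.52 to 10.14. Reference genes gave a check of scale: none of 12 passed, their median was -0.27 and 9 of 12 were below 0, so small negative differences also occurred among genes taken as stable. Genes of cholesterol and fatty acid synthesis had a median of -0.40, with 2 of 18 lower, among them IDI1 (2.30-fold), and 1 to 3 lower under other processing. In hypoxia and glycolysis 1 of 22 was higher, VEGFA, and 1 was lower, MT1X (3.02-fold). In the amino acid and ER stress list none of 15 passed. Among HOX genes HOXC6 was the single member of 14 to pass (2.40-fold higher), although not without background correction, with an offset of 50 or with the mean of probes, and among cadherins and EMT genes CDH5 was the single member of 17. Over all genes 4.65% were higher and 2.18% lower, so 1 higher member in a list of 14 to 22 genes is close to that share and says little about the list.

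Immediate-early genes, which respond within minutes to fresh medium, growth factors or handling, were in part higher on day 5. FOS was not detected on day 4 (5.24), stood at 9.13 on day 5, was back at 5.51 on day 6 and stood at 8.54 and 8.53 on days 7 and 8. FOSB followed the same course, with 5.0, not detected, on day 4, 8.09 on day 5, 4.61 on day 6 and 6.28 on day 7. In all, 5 of 19 measured members were higher, the others being EGR1, ZFP36 and DUSP1, and 1, IER3, was lower, with 3 higher without background correction or with an offset of 50. FOS, FOSB and EGR1 were thus high on the single day 5 array and low on days 4 and 6, and FOS stood at 11.34 to 11.72 in the sorted fractions, above any unsorted day. The part of medium, time since feeding or handling in these levels was not tested.

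**Figure D4:**
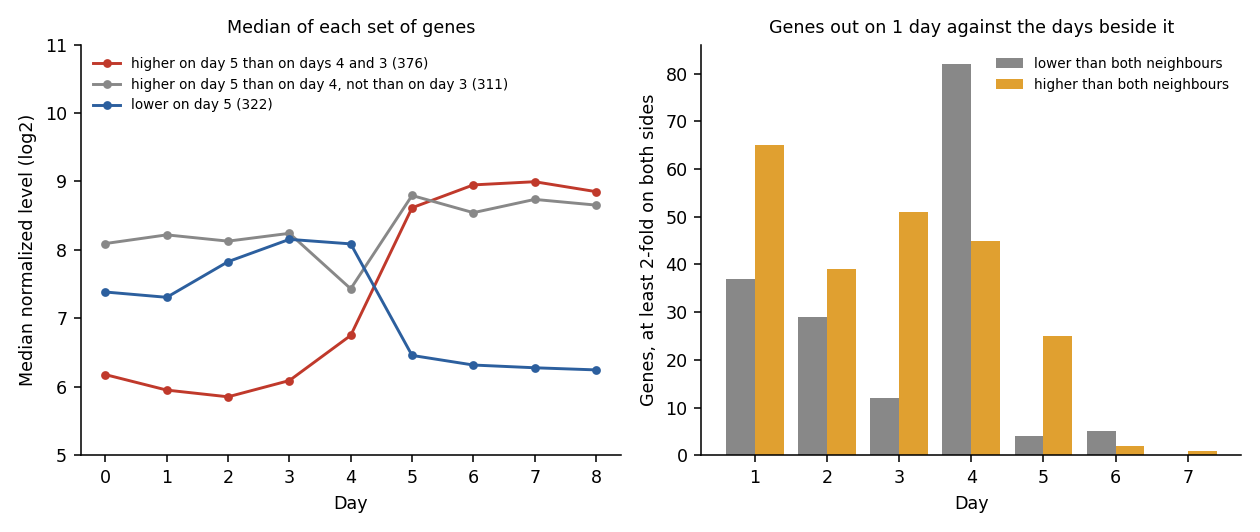
Left, median normalized log2 level per day of the 376 genes higher on day 5 than on days 4 and 3, the 311 higher than on day 4 but not than on day 3, and the 322 lower. Right, number of genes at least 2-fold lower (grey) or higher (orange) than on both neighbouring days, for days 1 to 7, with 82 lower on day 4 and at most 37 on any other day.

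The day 4 array had the largest number of isolated low levels, but more genes also rose out of day 4 than out of any other day. On day 4, 82 genes were at least 2-fold below both day 3 and day 5, against 37, 29 and 12 on days 1 to 3 and 4, 5 and 0 on days 5 to 7. Isolated high levels on day 4 numbered 45, within the range of days 1 to 3, which had 65, 39 and 51. Apart from APOA2, MYB and other genes of the lists, examples picked after their values were seen are NFAT5, a factor of the osmotic response, at 7.05, 5.38 and 7.76 on days 3 to 5, and ARID4B, a chromatin protein, at 9.34, 6.97 and 9.09. TDP1, a DNA repair enzyme, was at 9.52, 8.08 and 10.32. These 82 genes are part of the 687, and their share of it is 11.9%. The 37 isolated lows of day 1, 29 of day 2 and 12 of day 3 are likewise part of smaller rises to the next day. Those rises held 328, 435 and 504 genes, so the counts of lows are not on one scale. Among the 82, 57 carried a current gene symbol (69.5%), against 335 of the 376 genes that also exceeded day 3 (89.1%). The share was much the same in the 311 genes that did not exceed day 3, with 210 (67.5%), so it is not particular to the 82. The cause of the low levels was not tested.

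Levels before and after the step were compared on arrays that the step does not use. The contrast also takes in changes before day 4 and after day 5, so it does not measure whether the step's differences lasted. In limma, days 6 to 8 were set against days 1 to 3, with 3 arrays on each side and the days standing in for replicates, so the spread includes real change over the days of a period. At a Benjamini-Hochberg adjusted p below 0.05 and at least 2-fold, 1681 of 17657 genes rose (9.52%) and 1276 fell (7.23%). Of the 687 genes higher on day 5, 330 rose (48.0%) and 5 fell. The 376 genes that also exceeded day 3 held 296 of these 330, and the 311 others held 34, but day 3 is also an array of this test, so the split by day 3 favours that contrast and is no evidence. Of the 322 lower genes, 136 fell (42.2%) and 9 rose. Against day 5, 609 of the 687 genes were within 2-fold of that level on day 6, 53 were higher still and 25 were lower. This count uses the day 5 array, on which the 687 were chosen, so it is no independent measure of whether they stayed high. Over all genes 180 were higher and 90 lower on day 6 than on day 5. Day 6 against day 3, which uses neither array of the step, gave 1217 higher genes (8.31% of those compared) and 1035 lower (7.06%), among them 351 of the 687 and 211 of the 322.

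By list, most endothelial and plasma protein genes rose in this test. Of the 34 endothelial genes 27 rose and none fell, and of the 23 plasma protein genes 22 rose and none fell. CD34 rose by 6.35 ± 0.18 on the log2 scale (SE, limma adjusted p = 8.686e-06) and CDH5 by 5.29 ± 0.26 (SE, limma adjusted p = 5.419e-05). COL3A1 rose by 8.0 ± 0.21 (SE, limma adjusted p = 8.686e-06), FGB by 7.63 ± 0.34 (SE, limma adjusted p = 3.866e-05) and IGFBP3 by 6.50 ± 0.58 (SE, limma adjusted p = 0.0004891). EOMES fell by 6.94 ± 0.74 (SE, limma adjusted p = 0.0009842) and OLFM1 by 4.43 ± 0.47 (SE, limma adjusted p = 0.000932). The fit used levels that were not raised to the detection floor. The means of CD34, CDH5, COL3A1 and FGB on days 1 to 3 were 4.84, 4.365, 5.01 and 4.82, below the floors of those arrays (5.44 to 5.73). The mean of EOMES on days 6 to 8 was 4.59, also below the floors. The sizes and SEs of these differences thus rest in part on undetected levels. DKK1, strongly lower at the step, did not pass. It differed by -3.52 ± 1.5 (SE, limma adjusted p = 0.1147) and was low on day 1 as well. RUNX1 passed and rose by 1.42 ± 0.20 (SE, limma adjusted p = 0.002551) although its highest level was on day 5. In the cell cycle list, where no decrease reached 2-fold at the step on the brightest probes, 18 of 28 fell in the same test.

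The sorted day 7 cells show in which fraction the genes of the step were high. CD34hi CD41- and CD34- CD41- cells were compared by the same 2-fold rule, with 1 array each and no test, and CD34 itself is set by the sort. Over 14440 genes, 1051 were higher in CD34hi CD41- cells (7.28%) and 1409 lower (9.76%). Of the 687 genes higher on day 5, 141 were higher in CD34hi CD41- cells (20.5%) and 352 were lower (51.2%). The fraction with the highest level was CD34- CD41- for 455 of the 687 (66.2%), against 30.3% of all genes, and CD34hi CD41- for 132 (19.2%), against 24.1% of all genes. Among the 376 genes that also exceeded day 3, 112 were higher and 175 lower in CD34hi CD41- cells, and among the 311 others 29 were higher and 177 lower.

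**Figure D5:**
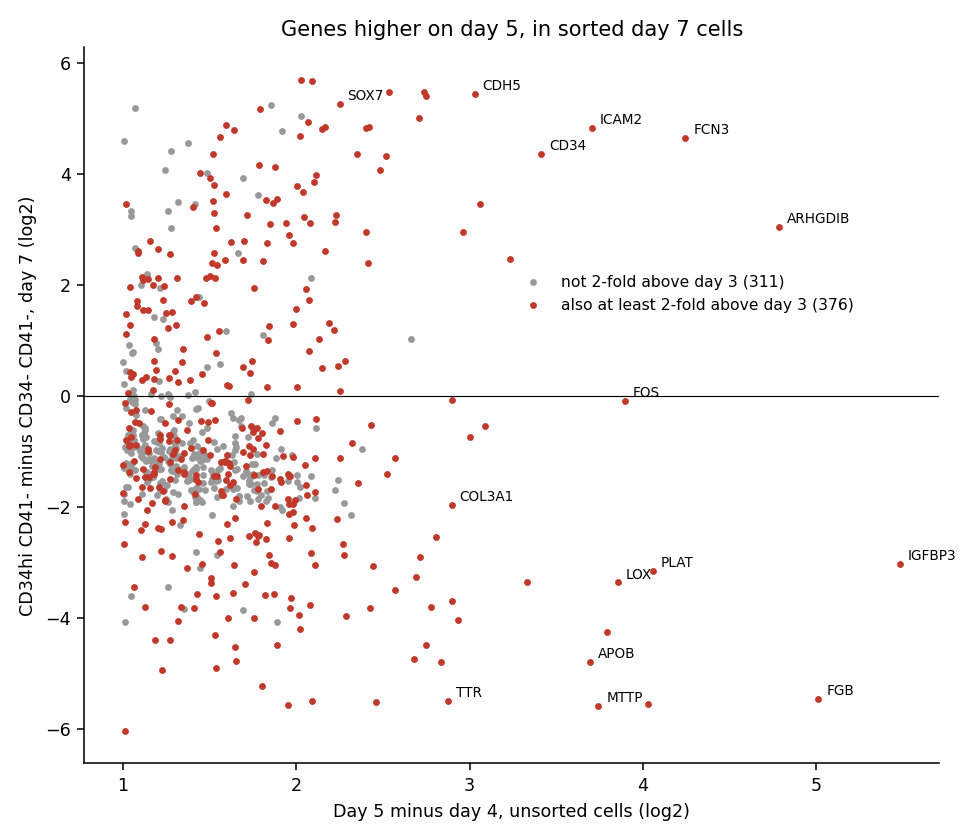
Difference of day 5 minus day 4 in unsorted cells (x axis, log2) against the difference of CD34hi CD41- minus CD34- CD41- cells of day 7 (y axis, log2) for the genes higher on day 5, in red where they also exceeded day 3 at least 2-fold (376) and in grey otherwise (311). CDH5, ICAM2 and FCN3 lie above 4 on the y axis and FGB, MTTP and TTR below -5.

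The gene lists differed by cell fraction, counted here over all measured members whether or not they passed at the step. Endothelial genes were higher in CD34hi CD41- cells in 31 of 34 measured members and lower in none. CDH5 stood at 6.75 in CD34- CD41-, 10.61 in CD34lo CD41-, 12.19 in CD34hi CD41- and 9.55 in CD34lo CD41lo cells. FCN3 followed the same order, with 8.62, 10.60, 13.27 and 9.24. Plasma protein genes were lower in CD34hi CD41- cells in 20 of 23 measured members and higher in none, and FGB stood at 12.33, 10.94, 6.88 and 6.97 in the same fractions. Of the mesenchyme and matrix genes 11 of 27 were lower there and 3 were higher. COL3A1 stood at 12.59, 12.22, 10.64 and 8.47, IGFBP3 at 10.60, 9.24, 7.57 and 6.16, and LOX at 8.0, 6.96, 4.65 and 4.44. LOX, IGFBP3 and DCN were each lower in all 4 fractions than in unsorted day 7 cells, for instance 8.0 at most against 10.45 for LOX, and the fractions come from a separate experiment. RUNX1 and NFE2 were instead highest in CD34lo CD41lo cells. RUNX1 stood at 4.90, 8.20, 8.70 and 9.71, and NFE2 at 8.37, 10.65, 8.81 and 11.90. ARHGDIB stood at 9.70, 12.43, 12.75 and 12.94, so its levels in CD34hi CD41- and CD34lo CD41lo cells were close.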

How the data were processed

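Human embryonic stem cells and their derivatives were measured on 13 Illumina bead arrays, 1 for each day or fraction, with total RNA isolated by a Roche kit and cRNA labelled by an Ambion kit per the labels. The authors deposited intensities that are not normalized between arrays and, per the file headers, a detection value beside each, a fraction from 0 to 1. Some intensities lie below 0 (lowest -28.8), so a background had been subtracted. The log2 values that the authors deposited as normalized were used as an alternative, and no source used here states how they were transformed. GenomeStudio 2010.2 and lumi are named per the submitters' processing notes, without roles.

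Intensities of the 13 arrays were background corrected and quantile normalized together by the neqc function (offset 16, limma 3.58.1, R 4.3.3), with detection p as 1 minus the detection value. A probe was detected at p below 0.01. The lowest normalized level of a detected probe, the floor of an array, ran from 5.29 to 5.73. An undetected side was raised to it where single arrays were compared, but not in the limma fit. Of 47231 probes 1 without values was dropped, 27035 had a symbol in current use, 4649 had one that was replaced by its current form, 12276 had a name without a match and 3270 had none. The brightest probe stood for a gene, and probes without a name counted as their own gene, which gave 17657 genes, 4021 of them with several probes. Column names were matched to samples, with rank correlations of at least 0.999995 with the deposited matrix column of the same sample and at most 0.904 with another.

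Day 5 against day 4 and the fractions were compared at 2-fold with no test. Days 6 to 8 against days 1 to 3 were fitted with lmFit and eBayes, which was checked on simulated data. Named genes were the 15 largest each way with a current symbol, CD34 and CDH5, up to 6 members each way per list that passed, and members of the activin, FGF and IGF lists. The members and the 33 lists were chosen with earlier results of these data known, so their counts are no independent evidence. Depth does not apply to arrays, and their number limits the precision. Some members of the lists are not reported here by name.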

Additional observations from a re-analysis of the deposited data

How the results depend on the processing

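No paired analysis was possible because no sample has a replicate number in the labels and each condition was measured once. The count of genes higher on day 5 was 687. It was 1566 at 1.5-fold and 91 at 4-fold, 376 when day 3 had to be exceeded as well and 351 when day 6 also had to exceed day 3, the last 2 added after the data were seen. It was 1009 with the submitters' own values, 512 without background correction and 496 with an offset of 50. The count of lower genes, 322, was 655 with the submitters' values, 185 without background correction, 178 with an offset of 50, 1370 at 1.5-fold, 40 at 4-fold, 205 when also below day 3 and 211 when day 6 was also below day 3. In CD34hi CD41- cells the 1051 higher genes became 2131 at 1.5-fold and 365 at 4-fold, and the 1409 lower ones 2515 and 445. For days 6 to 8 against days 1 to 3, leaving out 1 day at a time gave 1392 to 1976 genes that rose and 1040 to 1624 that fell, and an offset of 50 gave 830 that fell against 1276. The 141 genes higher both on day 5 and in CD34hi CD41- cells became 90 without background correction and 87 with an offset of 50. Of 144 named genes that passed, none reversed under 4 settings, and 144 stayed past 2-fold with the submitters' values, 133 with the mean of probes, 123 without background correction and 121 with an offset of 50. The cause of these shifts was not tested, apart from the thresholds and conditions, which change the count by construction. With 1 array a day, no difference between day 4 and day 5 has an error, and levels near 5 on the log2 scale are near the detection floor.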
